A study of Mus musculus with 6 samples.

Results

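Genes for Perforin-2 and other antimicrobial effectors were followed in RNA-seq libraries of brain microglia, and they make up 10 of the 55401 genes in the count table. They are Mpeg1, Lyz1, Lyz2, Camp, Ngp, Lcn2, Slc11a1, S100a8, S100a9 and Acod1, found by matching gene identifiers to these symbols. The genes were chosen by what they do and with their measured strain differences in these same libraries known, so their strain differences, and whether each passed the threshold of the fit over all genes, are given as a description that supports nothing. All 10 passed the filter on low counts, which left 19554 genes, and Lyz1 passed only through the MRL/lpr libraries, where it was higher.

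The libraries came from brains of untreated 6-week-old mice, 3 from MRL/lpr and 3 from MRL/mpj. Both strains share the MRL background, and the lpr mutation, which MRL/lpr mice bear in the death receptor gene Fas, leads to lupus-like autoimmunity. Brains were perfused with PBS and digested, and cells were enriched on Percoll and with magnetic beads against CD11b, a surface protein that microglia share with neutrophils, monocytes and other macrophages. The study counts its replicates for these profiles in mice, while the labels tie no library to a mouse and do not say whether mice were pooled, so p-values measure the spread between these libraries.

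The libraries held 45481609 to 49846634 counts, and 1138 to 1288 genes per library had exactly 4 counts against 320 to 415 with 3, so that 1 read pair appears to be worth 4 counts. Fas had 461, 282 and 298 counts in MRL/lpr and 426, 432 and 362 in MRL/mpj, which does not check the labels. Xist, the RNA of the inactive X chromosome, had 8886 to 11319 counts in MRL/lpr and 27 to 38 in MRL/mpj, while the Y-linked genes Ddx3y, Uty, Kdm5d and Eif2s3y together had 8408 to 15046 counts in every library, so a difference in sex or in the mixture of mice cannot be told apart from strain. The methods name female mice of both strains, and these counts go against that for the libraries used here. Mitochondrial genes took 3.06% to 3.49% of counts in MRL/lpr and 5.84% to 6.38% in MRL/mpj. MRL/lpr library 3 stood apart, with 6.38% of its counts in the gene CT010467.1 against 0.169% to 0.457% in the others. The microglia gene Tmem119 was abundant in all libraries and averaged 2403 CPM (counts scaled to a common library size) in MRL/lpr and 2487 in MRL/mpj. With bulk libraries, fewer cells of a type and less RNA per cell cannot be told apart.

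Antimicrobial effectors are the proteins with which phagocytes damage or starve microbes. Perforin-2, the product of Mpeg1, is a pore-forming protein of macrophages and microglia that acts on bacteria inside the phagosome, and lysozymes cut the bacterial cell wall. Camp and Ngp are stored in neutrophil granules, Lcn2 binds the siderophores that carry iron to bacteria, Slc11a1 pumps metal ions out of the phagosome, S100a8 and S100a9 form calprotectin, which binds zinc and manganese, and Acod1 makes itaconate, a metabolite that inhibits bacterial metabolism. Camp, Ngp, Lcn2, S100a8 and S100a9 are best known from neutrophils, and Mpeg1 and Lyz2 from cells of the monocyte and macrophage lineage.

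Because Mpeg1 had the largest change in counts of the 10, the 250 bases before its RefSeq start site are shown. They lie on the plus strand at chr19:12460520-12460769 of GRCm38.p6, and the capitals mark the letters CCAAT, 103 bases before the start.
Mpeg1: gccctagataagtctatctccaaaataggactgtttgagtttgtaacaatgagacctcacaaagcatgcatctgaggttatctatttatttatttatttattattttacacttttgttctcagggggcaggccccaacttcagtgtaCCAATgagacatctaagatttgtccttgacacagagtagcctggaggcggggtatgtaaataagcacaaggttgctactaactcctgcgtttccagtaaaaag
Motifs were searched as letters on both strands of this window in the 10 genes and in 27025 RefSeq promoters of the same length. RefSeq start sites differ from those of the GENCODE annotation for several genes. The window of Lcn2 lay wholly inside its GENCODE gene, and those of Lyz2, Camp, Ngp, Slc11a1, S100a8 and Acod1 lay partly inside theirs. CCAAT was in 4 of the 10 windows (Mpeg1, Lyz1, Ngp and Acod1) and in 34.5% of all promoters. The C/EBP letters TTGCNNAA were in 4 (Lyz1, Ngp, Lcn2 and S100a9) against 9.55% of all promoters, and the PU.1 core GAGGAA was in 4 (Lcn2, Slc11a1, S100a8 and Acod1) against 23.1%. The interferon half-site pair GAAANNGAA was in 1 window, that of Lyz1, against 7.16%, and the TATA letters TATAAA were in 2 (S100a8 and Acod1) against 13%. The letters TTCNNNGAA of the STAT site, TGANTCA of AP-1 and GGGNNTTCC of NF-kB were in none of these windows, against 7.18%, 6.87% and 4.88% of all promoters. A match describes letters and is no measured site.

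The lysozyme genes Lyz1 and Lyz2 are neighbours on the minus strand of chromosome 10, with starts 10.5 kb apart, and their upstream stretches are shown because their levels were far apart. The stretches run from 250 to 51 bases before each RefSeq start, at chr10:117292919-117293118 for Lyz1 and chr10:117282323-117282522 for Lyz2, and the capitals mark the bases that were not identical in their alignment. Of 198 aligned bases, 150 were identical (75.8%).
Lyz1: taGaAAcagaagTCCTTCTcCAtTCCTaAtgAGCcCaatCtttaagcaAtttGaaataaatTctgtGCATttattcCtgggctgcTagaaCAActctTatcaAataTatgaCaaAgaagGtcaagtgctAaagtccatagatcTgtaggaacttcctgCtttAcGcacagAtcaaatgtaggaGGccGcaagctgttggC
Lyz2: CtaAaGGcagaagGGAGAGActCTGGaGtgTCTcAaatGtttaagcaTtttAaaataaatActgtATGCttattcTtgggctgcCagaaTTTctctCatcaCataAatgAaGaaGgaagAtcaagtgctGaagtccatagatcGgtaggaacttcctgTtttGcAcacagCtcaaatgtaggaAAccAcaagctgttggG
Their coding sequences are much closer, which bears on how reads are assigned. Both are 447 bases long and differ at 22 positions (95.1% identical), and the stretch of coding bases 37 to 156 in GENCODE M21 transcripts holds 14 of these differences, marked in capitals.
Lyz1: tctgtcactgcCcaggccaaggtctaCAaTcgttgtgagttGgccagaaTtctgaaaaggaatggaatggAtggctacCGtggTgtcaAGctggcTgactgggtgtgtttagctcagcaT
Lyz2: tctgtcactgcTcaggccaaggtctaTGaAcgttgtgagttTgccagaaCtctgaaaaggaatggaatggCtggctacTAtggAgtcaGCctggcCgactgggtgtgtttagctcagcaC
Of all windows of 50 coding bases, 20.1% were identical between both genes, of 100 bases 5.46%, and of 150 bases 0 of 298. The longest identical run of coding bases was 118 bases, and the reads were 150 bases long. Exon bases outside the coding sequences were not compared.

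Levels per length are given as FPKM, the authors' fragment values scaled for gene length and library size. In MRL/lpr, Mpeg1 was the most abundant of the 10 genes at 405 ± 12.9 FPKM (mean ± SD, n = 3), above S100a9 at 276 ± 9.59 and Ngp at 169 ± 12.4. Lyz2 at 149 ± 3.14 and S100a8 at 142 ± 11.8 came next and their ranges overlapped. Camp (37.8 ± 6.30) and Slc11a1 (33.4 ± 2.23), whose ranges overlapped too, Lcn2 (22.7 ± 0.399), Acod1 (5.07 ± 0.563) and Lyz1 (1.19 ± 0.315) followed.

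In MRL/mpj the order of levels was led by S100a9 at 259 ± 24.7 FPKM and Ngp at 139 ± 6.37. S100a8 (120 ± 10.4), Lyz2 (118 ± 3.77) and Mpeg1 (111 ± 1.25) lay close together, and the ranges of S100a8 and Lyz2 and of S100a8 and Mpeg1 overlapped. Slc11a1 (37.8 ± 0.330) stood above Camp (30.1 ± 3.30), with Lcn2 (24.6 ± 1.11), Acod1 (4.59 ± 0.0850) and Lyz1 (0.09 ± 0.108) lowest. Mpeg1 thus stood at the top of the order in MRL/lpr and in a middle cluster in MRL/mpj.

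**Figure D1:**
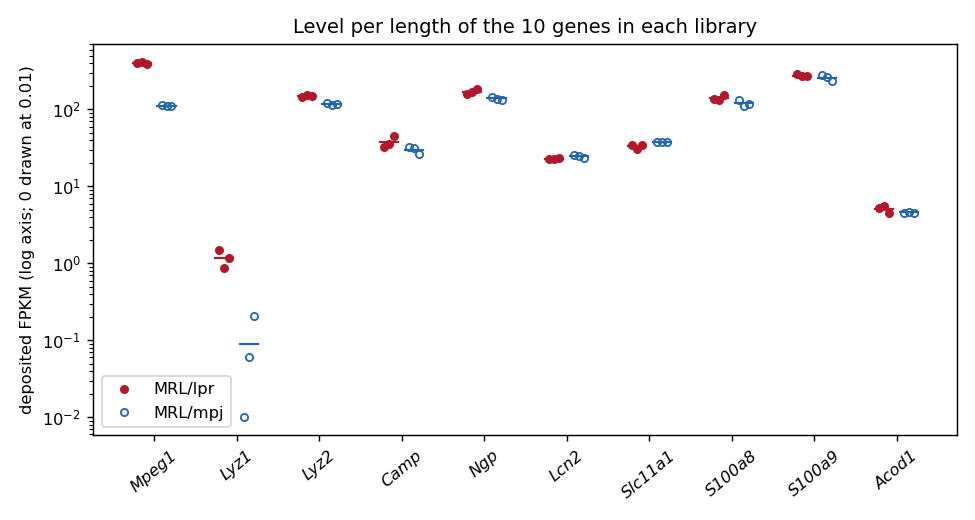
Deposited FPKM of the 10 genes in each library on a log axis, with MRL/lpr and MRL/mpj side by side, 1 point per library and horizontal bars at the means of 3 (a value of 0 is drawn at 0.01). Mpeg1 lay at 391 to 416 FPKM in MRL/lpr and at 110 to 113 in MRL/mpj, and Lyz1 was the lowest gene in both strains.

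Mpeg1 (ENSMUSG00000046805, chr19:12460779-12465283 of GRCm38, plus strand) had 95133, 97469 and 85851 counts in MRL/lpr and 27009, 25853 and 26731 in MRL/mpj. The lowest MRL/lpr library was far above the highest MRL/mpj library, and the libraries of a strain lay close together. Scaled by TMM (trimmed mean of M values, which corrects library sizes for composition), Mpeg1 was at 2050 ± 24.0 CPM in MRL/lpr and 519 ± 6.07 in MRL/mpj, 3.95-fold higher in MRL/lpr, with a log2 fold change of 1.98 (SE 0.05). The coefficient of variation between libraries was 1.17% in both strains. Mpeg1 ranked 46 in CPM among the genes tested in MRL/lpr and 212 in MRL/mpj. Its log2 fold change lay between 1.97 and 1.99 when any 1 library was left out.

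Set against other genes of the same libraries, Mpeg1 differed more between the strains than the macrophage genes Lyz2 and Csf1r, the receptor for the growth factor that microglia need. There were 8.56 to 9.18 Mpeg1 counts per Lyz2 count in MRL/lpr and 3.05 to 3.20 in MRL/mpj. Per Csf1r count there were 0.166 to 0.222 in MRL/lpr and 0.0512 to 0.0529 in MRL/mpj. Neither ratio overlapped between the strains, and both include the Mpeg1 difference itself.

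Lyz2 (ENSMUSG00000069516, chr10:117277331-117282321, minus strand), the lysozyme of macrophages, had 10360, 10817 and 10025 counts in MRL/lpr and 8865, 8079 and 8668 in MRL/mpj. Its strains did not overlap, at 230 ± 9.76 and 167 ± 5.45 CPM, and Lyz2 was 1.38-fold higher in MRL/lpr with a log2 fold change of 0.46 (SE 0.06). Lyz1 (ENSMUSG00000069515, chr10:117287797-117292868, minus strand), the lysozyme best known from Paneth cells of the gut, had 103, 60 and 76 counts in MRL/lpr and 0, 4 and 16 in MRL/mpj. At 4 counts to a read pair, the Lyz1 values of MRL/mpj rest on a few read pairs.

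The log2 fold change of Lyz1 was 3.74 (SE 0.90), with 1.76 ± 0.461 CPM in MRL/lpr and 0.129 ± 0.160 in MRL/mpj. Lyz1 had 0.00555 to 0.00994 counts per Lyz2 count in MRL/lpr and 0 to 0.00185 in MRL/mpj. With both genes summed the log2 fold change was 0.47. How the authors' counting treated a read that matches both genes is not given in the sources used here, and no coding window of 150 bases was identical between them. Only the 447 coding bases were compared, out of exon lengths of 1263 bases for Lyz1 and 1316 for Lyz2. How well reads separate the genes was not tested. For Lyz1 the log2 fold change ran from 3.16 to 5.38 when any 1 library was left out. Lyz1 was no longer past the threshold (adjusted p under 0.05, edgeR quasi-likelihood test) without MRL/lpr library 1 or without MRL/mpj library 2.

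The granule genes Camp and Ngp lie 570 kb apart on chromosome 9. Ngp (ENSMUSG00000032484, chr9:110419747-110423012, plus strand), a granule protein related to the cathelicidins, had 10417, 10977 and 11296 counts in MRL/lpr and 9871, 8992 and 9147 in MRL/mpj. Its level was 242 ± 25.4 CPM in MRL/lpr and 183 ± 8.47 in MRL/mpj, 1.32-fold higher, with a log2 fold change of 0.40 (SE 0.08). Camp (ENSMUSG00000038357, chr9:109847379-109849617, minus strand), the cathelicidin antimicrobial peptide, had 1341, 1467 and 1725 counts against 1344, 1304 and 1117. In counts MRL/lpr library 1 lay below MRL/mpj library 1, and after scaling the strains did not overlap, at 33.7 ± 6.73 and 24.6 ± 2.68 CPM. The log2 fold change of Camp was 0.45 (SE 0.15), and leaving out any 1 library gave 0.29 to 0.56, with 0.29 without MRL/lpr library 3.

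MRL/lpr library 3, the one with the large share of CT010467.1, had the highest scaled level of Camp (41.3 CPM), Ngp (270.3 CPM) and S100a8 (130.3 CPM, below). Without it the log2 fold change was 0.32 for Ngp and 0.27 for S100a8, both still past the threshold. The part of that library's composition in these values was not tested.

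Lcn2 (ENSMUSG00000026822, chr2:32384633-32388252, minus strand) had 3189, 3176 and 3080 counts in MRL/lpr and 3705, 3513 and 3432 in MRL/mpj. The raw counts were lower in every MRL/lpr library, and after TMM scaling they overlapped at 69.7 ± 3.50 and 69.4 ± 3.15 CPM, with a log2 fold change of 0.00 (SE 0.08). Its direction depended on the scaling and was -0.12 with library size alone.

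Slc11a1 (ENSMUSG00000026177, chr1:74375195-74386062, plus strand) had 6939, 6168 and 6499 counts in MRL/lpr and 7707, 7609 and 7810 in MRL/mpj. It overlapped after scaling at 145 ± 12.5 and 151 ± 1.25 CPM, with a log2 fold change of -0.06 (SE 0.08), and was 0.01 without MRL/lpr library 2. Both Lcn2 and Slc11a1 were lower in every MRL/lpr library when scaled by library size alone.

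S100a8 (ENSMUSG00000056054, chr3:90668978-90670035, plus strand) and S100a9 (ENSMUSG00000056071, chr3:90692632-90695721, minus strand) start 26.7 kb apart. S100a8 had 5175, 4942 and 5444 counts in MRL/lpr and 5056, 4160 and 4540 in MRL/mpj. One MRL/mpj library, library 1, reached the MRL/lpr range in counts, and the scaled levels did not overlap at 115 ± 13.4 and 89.6 ± 7.86 CPM. S100a8 had a log2 fold change of 0.36 (SE 0.10), and it was no longer past the threshold with library size alone, with limma on FPKM, or without MRL/lpr library 1, MRL/mpj library 2 or MRL/mpj library 3. S100a9 had 8075, 7648 and 7130 counts against 8121, 7405 and 6795, which overlapped. On the TMM scale it was at 168 ± 5.06 and 146 ± 13.9 CPM, with a log2 fold change of 0.21 (SE 0.08).

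Ratios within a library compare genes free of scaling. The calprotectin partners had 1.31 to 1.56 S100a9 counts per S100a8 count in MRL/lpr and 1.5 to 1.78 in MRL/mpj. Ngp had 6.55 to 7.77 counts per Camp count in MRL/lpr and 6.90 to 8.19 in MRL/mpj, and Ltf, the lactoferrin of the same granules, 0.585 to 0.664 counts per Ngp count against 0.644 to 0.665. These 3 ratios overlapped between the strains. Lcn2 per Ngp count was apart, at 0.273 to 0.306 in MRL/lpr and 0.375 to 0.391 in MRL/mpj.

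**Figure D2:**
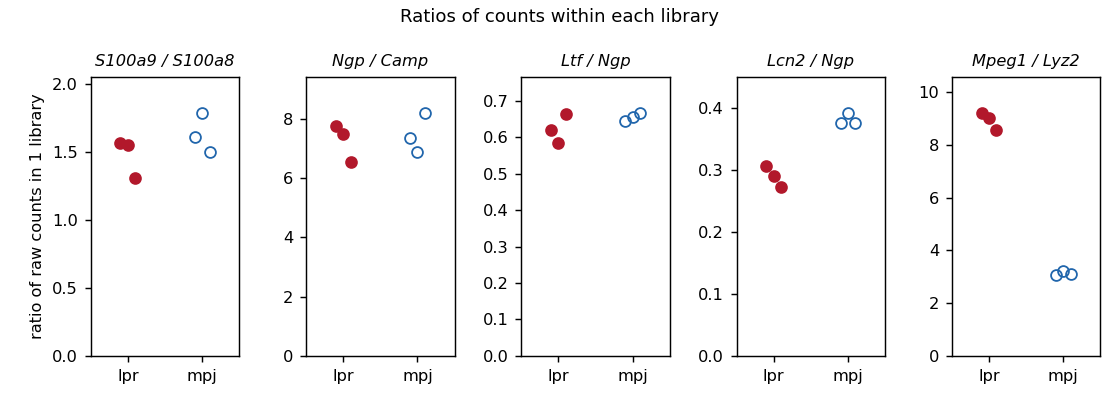
Ratios of counts between the listed genes within each library on linear axes that start at 0, 1 point per library with the strains side by side, including Mpeg1 per Lyz2 count. The ratios of S100a9 to S100a8, Ngp to Camp and Ltf to Ngp overlapped between the strains, while Lcn2 per Ngp count lay at 0.273 to 0.306 in MRL/lpr and 0.375 to 0.391 in MRL/mpj.

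Acod1 (ENSMUSG00000022126, chr14:103046977-103056573, plus strand) had 733, 789 and 594 counts in MRL/lpr and 661 in 2 MRL/mpj libraries and 665 in the other. The MRL/lpr libraries spread around the MRL/mpj values, and after TMM scaling they were at 15.5 ± 1.28 against 13 ± 0.235 CPM, with a log2 fold change of 0.26 (SE 0.12). With library size alone the strains overlapped.

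Among the 10 genes, Mpeg1, Lyz1, Lyz2, Ngp and S100a8 were higher at an adjusted p under 0.05 (5 genes), beside 11.1% of all genes tested, and 0 were lower, beside 9.06%. At an unadjusted p under 0.05, 7 were higher, beside 16.3% of all genes, and 0 lower, beside 15.5%. DESeq2 called 6 higher, beside 9.78%, and 0 lower, beside 8.36%. Without MRL/mpj library 2, 3 genes were higher. Differential expression also asked for a log2 fold change of 1 or more in size: 2 were higher (Mpeg1 and Lyz1), beside 4.67% of all genes, and 0 lower, beside 3.66%. Lyz1 entered the fit only through the strain where it was high, so its direction was favoured by the filter in each of these counts. The strains did not overlap, with MRL/lpr higher, in 8 genes, beside 19.6% of all genes, and in 0 with MRL/lpr lower, beside 19.4%. Since the genes were chosen with these differences known, nothing is read from these shares.

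With library size alone, 6 of the 10 did not overlap with MRL/lpr higher, beside 14% of all genes, and 2 (Lcn2 and Slc11a1) with MRL/lpr lower, beside 27.8%, and the median log2 fold change of all genes tested went from -0.01 to -0.13. The median over the 10 genes was 0.38 on the TMM scale. Their coefficients of variation between libraries had a median of 8.42% in MRL/lpr and 4.59% in MRL/mpj, beside 16% and 12.8% over all genes tested.

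**Figure D3:**
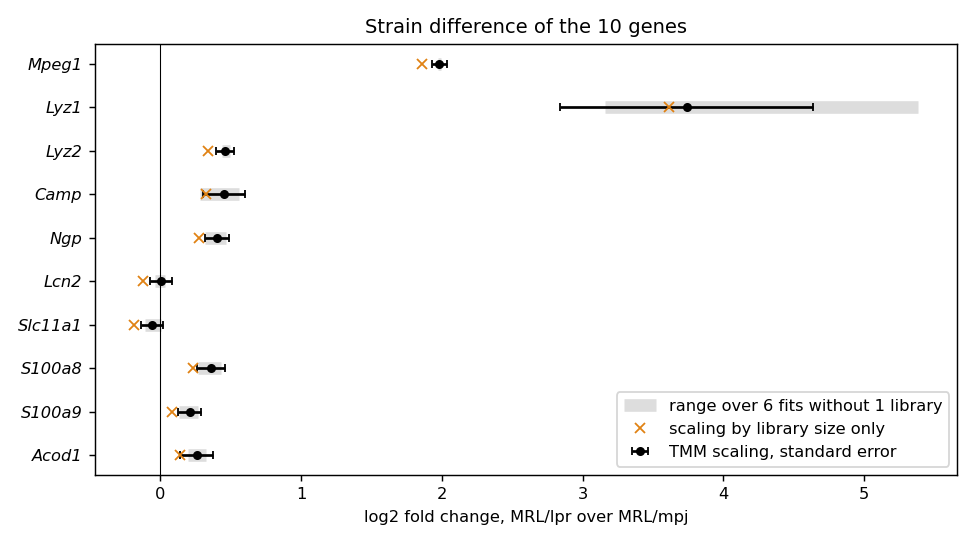
Log2 fold change of MRL/lpr over MRL/mpj for the 10 genes on the TMM scale (black points, bars of 1 standard error from edgeR), with the range over 6 fits that each leave out 1 library in grey and scaling by library size alone as crosses. Lyz1 at 3.74 and Mpeg1 at 1.98 lay beyond a log2 fold change of 1, and the other 8 lay between -0.06 and 0.46.

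Neutrophils could be among CD11b-selected cells, and markers of that cell type were present in every library. Of 17 neutrophil markers tested, 6 were higher (Retnlg, Mmp9, Lrg1, Hp, Il1r2 and Trem1), 1 was lower (Stfa2l1) and 10 did not pass. This count and those of the other cell types below stand beside 11.1% higher and 9.06% lower over all genes tested. DESeq2 called 4 neutrophil markers higher, beside 9.78% of all genes, and 1 lower, beside 8.36%. At an unadjusted p under 0.05, 9 were higher, beside 16.3%, and 2 lower, beside 15.5%. Stfa2l1 had 0 counts in every MRL/lpr library and 11, 18 and 22 in MRL/mpj, a few read pairs at 4 counts each. Without Csf3r, the most abundant, the neutrophil markers summed to 206 to 222 CPM by library size in MRL/lpr and 153 to 162 in MRL/mpj. With it, they summed to 946 to 980 and 1038 to 1081 CPM. Ly6g, the antigen that defines mouse neutrophils, had 133, 146 and 119 counts against 96, 80 and 36, with a log2 fold change of 1.08 (edgeR adjusted p = 0.0734). The chemokine receptor gene Cxcr2 had 244, 263 and 185 counts against 224, 165 and 259, with a log2 fold change of 0.27 (adjusted p = 0.461). Ltf had 6453, 6421 and 7504 counts against 6353, 5889 and 6081 (log2 fold change 0.34, adjusted p = 0.0540). The part of these markers in the granule and S100 values was not tested.

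Granulocyte precursor markers gave 1 gene higher and 2 lower of 11, and summed to 228 to 258 CPM in MRL/lpr and 341 to 351 in MRL/mpj. The gene that was higher was Fcnb, with 129, 112 and 148 counts against 8, 0 and 12 (log2 fold change 4.45, edgeR adjusted p = 0.00266). At 4 counts to a read pair, the MRL/mpj values of Fcnb rest on a few read pairs, which limits its fold. Fcnb passed the filter on low counts only through the MRL/lpr libraries, where it was higher. Chil3 (16.1 CPM in MRL/lpr and 48.5 in MRL/mpj on the TMM scale) and Cd63 (65.6 and 143.7) were lower. The lower sum in MRL/lpr came from these genes, while Ltf, the most abundant of the list, was at 151 and 119 CPM. Monocyte markers were higher in 6 of 12 and lower in 1, summing to 1848 to 2144 CPM in MRL/lpr and 1363 to 1439 in MRL/mpj. Without Nr4a1, the most abundant, the sums were 612 to 671 and 653 to 686 CPM. Ly6c2 (log2 fold change 0.39, adjusted p = 0.146) and Ccr2 (-0.26, adjusted p = 0.349), which define classical monocytes, did not pass. Border macrophage markers summed to 55.2 to 59.2 CPM against 71.5 to 77.8, with 3 of 12 lower, among them Mrc1 (log2 fold change -0.39, adjusted p = 0.0443), and 0 higher by edgeR or DESeq2 (1 at an unadjusted p under 0.05).

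Homeostatic microglia markers were lower in 4 of 12 and higher in 0 by edgeR, by DESeq2 and at an unadjusted p under 0.05, and summed to 28106 to 30078 CPM against 35424 to 36200. P2ry12 was at a log2 fold change of -0.67 (edgeR adjusted p = 0.0566) and Tmem119 at -0.05 (adjusted p = 0.835). Dendritic cell markers were higher in 2 of 8 and summed to 218 to 252 CPM against 220 to 240, or 39.1 to 46.4 against at most 34.4 without Siglech, the most abundant. B cell markers gave 0 calls of 6 tested by edgeR in either direction, with 2 higher at an unadjusted p under 0.05 and 1 by DESeq2, and summed to 14.2 to 14.8 CPM against 11.9 to 15.7. Neuron, astrocyte and oligodendrocyte markers were lower in 2 of 6, 1 of 6 and 2 of 6, with sums of 10.5 to 13.1, 105 to 149 and 127 to 140 CPM in MRL/lpr and 24.8 to 28.2, 190 to 198 and 171 to 203 in MRL/mpj. Without Slc1a3, the astrocyte sums overlapped at 55.7 to 59.2 and 53.7 to 64.1 CPM. All sums were scaled by library size alone, and no listed marker had 0 counts in every library. The part of the markers that passed in the values of the 10 genes was not tested.

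To place the 10 genes in their pathways, 111 related genes in 6 lists were compared between the strains. Of the 100 tested, 33 were higher (33%), beside 11.1% of all genes, and 13 were lower (13%), beside 9.06%, with a median log2 fold change of 0.25 against -0.01 for all genes. With library size alone, 30 were higher and 21 lower. The lists were drawn up with earlier results of these data known, so these shares are given as a description.

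Other antimicrobial effectors were higher in 10 of 25 tested and lower in 4. Prf1, which encodes perforin of cytotoxic lymphocytes, a relative of Perforin-2, had 136, 146 and 138 counts in MRL/lpr and 21, 15 and 42 in MRL/mpj, a log2 fold change of 2.61 (SE 0.40, adjusted p = 0.00158). The granzyme genes Gzmb (2.59, SE 0.31, adjusted p = 0.000333) and Gzma (1.70, SE 0.25, adjusted p = 0.00119) rose with it. Beside these cytotoxic genes, 6 of 7 T cell markers were higher, summing to 16.1 to 22.6 CPM in MRL/lpr and 4.64 to 4.98 in MRL/mpj, and their part in the Prf1 and granzyme values was not tested.

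Among the abundant effectors, Rnase4, a secreted ribonuclease whose locus is shared with Ang, was at 991 CPM in MRL/lpr and 610 in MRL/mpj (log2 fold change 0.70, SE 0.07, adjusted p = 0.000136). The lower genes were Chil3, Lbp, Nos2 and Ear2, of which the last 3 are named after their values were seen. Chil3, a chitinase-like protein of myeloid cells, had 936, 644 and 612 counts against 2498, 2493 and 2452 (log2 fold change -1.59, SE 0.14, adjusted p = 5.09e-05).

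Metal handling genes were higher in 6 of 18 tested and lower in 3. Slc11a2, the relative of Slc11a1 that carries iron in most cells, rose by 0.85 on the log2 scale (SE 0.08, adjusted p = 6.41e-05), while Slc11a1 itself was at -0.06. The ferritin subunit genes, which store iron, were abundant: Fth1 was at 1453 CPM in MRL/lpr and 920 in MRL/mpj (log2 fold change 0.66, SE 0.08, adjusted p = 0.000293), and Ftl1 at 1552 and 1129 (0.46, SE 0.05, adjusted p = 0.00035).

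Hmox1, which breaks down haem, was at 847 CPM against 423 (log2 fold change 1.0, SE 0.09, adjusted p = 7.65e-05). Cp, the ferroxidase ceruloplasmin, rose by 1.05 (SE 0.07, adjusted p = 1.08e-05), and Trf, transferrin, was at 993 CPM against 739 (0.43, SE 0.07, adjusted p = 0.00274). Slc22a17, which encodes a receptor for the Lcn2 protein, fell by 0.74 (SE 0.08, adjusted p = 0.000164), while Lcn2 was at 0.00.

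Other S100 genes were higher in 2 of 10 tested and lower in 1. S100a10, the partner of annexin A2, rose by 1.14 (SE 0.16, adjusted p = 0.00102) and S100a11 by 0.56 (SE 0.13, adjusted p = 0.0155). S100a5 had 3, 0 and 0 counts in MRL/lpr and 44, 40 and 34 in MRL/mpj (adjusted p = 0.0101). No fold is given for it, since the MRL/lpr values are less than 1 read pair would give at 4 counts each. S100a5 lies in the same cluster on chromosome 3 as S100a8 and S100a9.

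Receptors and processing partners of these effectors were higher in 3 of 12 and lower in 2. Tlr2, which recognises bacterial lipoproteins, was at 535 CPM in MRL/lpr and 268 in MRL/mpj (log2 fold change 1.0, SE 0.09, adjusted p = 6.82e-05). Fpr2, a receptor for the Camp peptide, rose by 1.29 (SE 0.30, adjusted p = 0.0155), and P2rx7, an ATP receptor, fell by 0.83 (SE 0.17, adjusted p = 0.0131). Bsg, a receptor for S100a9, was at 854 and 745 CPM and did not pass (log2 fold change 0.20, adjusted p = 0.259).

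Genes around itaconate and the antioxidant factor Nrf2 were higher in 6 of 22 tested and lower in 4. Nfkbiz, which encodes the inflammatory regulator that itaconate derivatives act on through Atf3, was at 2283 CPM in MRL/lpr and 690 in MRL/mpj (log2 fold change 1.73, SE 0.08, adjusted p = 1.14e-06). Atf3 was at 5384 and 3104 CPM (0.79, SE 0.07, adjusted p = 3.35e-05). Srxn1, an Nrf2 target, rose by 2.74 (SE 0.63, adjusted p = 0.0342), and Clybl, which degrades a product of itaconate, fell by 1.81 (SE 0.46, adjusted p = 0.0225). Acod1 itself was at 0.26.

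Myeloid transcription factors were higher in 7 of 16 and lower in 0, with 9 higher and 0 lower at an unadjusted p under 0.05 and 7 and 0 by DESeq2. Cebpb, a factor of myeloid and inflammatory gene expression, rose by 1.08 on the log2 scale (SE 0.07, adjusted p = 6.64e-06). Klf4 rose by 0.87 (SE 0.09, adjusted p = 0.000152) and Nfkb1 by 0.40 (SE 0.07, adjusted p = 0.00319). Cebpa, a factor of granulocyte development, was at 591 and 534 CPM and did not pass (0.15, adjusted p = 0.126).

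**Figure D4:**
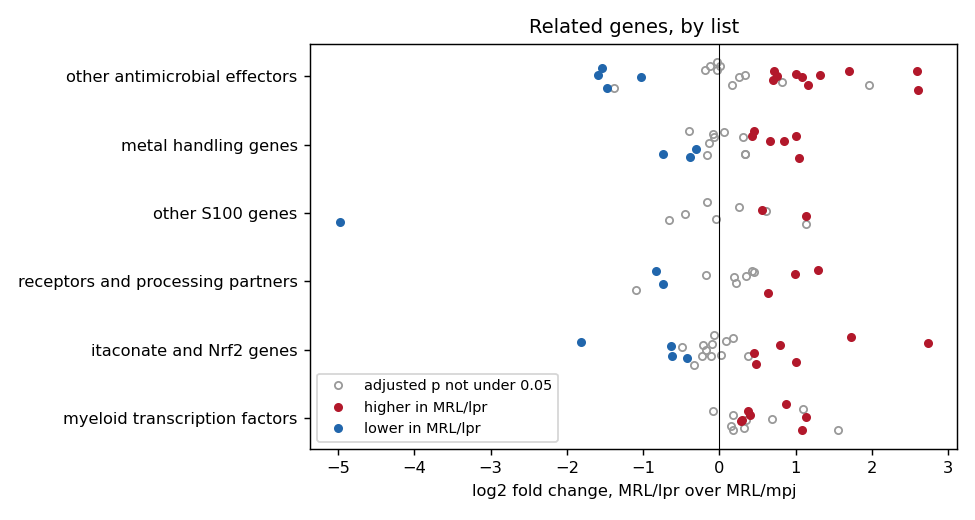
Log2 fold changes of MRL/lpr over MRL/mpj for the related genes tested, 1 point per gene in 6 lists, coloured by whether it was higher, lower or not past the threshold. A gene in 2 lists appears in both, and S100a5, at 0 to 3 counts in MRL/lpr, is drawn at its fitted value. Of 100 related genes, 33 were higher and 13 lower at an adjusted p under 0.05.

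To see whether genes near the 10 differed as well, all genes starting within 500 kb of any of them were compared. Of 308 such genes in the annotation 134 were tested, and 5 of them were differentially expressed by that definition. These were 3 higher, beside 4.67% of all genes tested, and 2 lower, beside 3.66%. Near Mpeg1, 10 genes were tested and 1 was differentially expressed, Lpxn, which encodes the adaptor leupaxin, 335 kb away, with 3099, 2976 and 2659 counts in MRL/lpr and 1193, 1231 and 1381 in MRL/mpj (log2 fold change 1.37, SE 0.09). Dtx4, 40.7 kb away, was at 0.47 (SE 0.07, edgeR adjusted p = 0.00101), and Fam111a, 85.0 kb away, at 0.32 (SE 0.08, adjusted p = 0.0193). Both of these nearest neighbours had smaller log2 fold changes than Mpeg1 (1.98).

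The other differentially expressed neighbours lay near Lcn2, Slc11a1 and the S100 pair. Slc25a25, near Lcn2, rose by 1.02 (SE 0.08, adjusted p = 3.2e-05), and Dnm1, 34.9 kb from Lcn2, fell by 1.23 (SE 0.36, adjusted p = 0.0415). Vil1, 34.2 kb from Slc11a1, rose by 1.57 (SE 0.22, adjusted p = 0.000925), and S100a5 was described above. The other 129 genes, among them all those near Lyz1, Lyz2, Camp, Ngp and Acod1, were not differentially expressed. Fas, the gene with the lpr mutation, starts 21830 kb from Mpeg1 on the same chromosome 19.

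**Figure D5:**
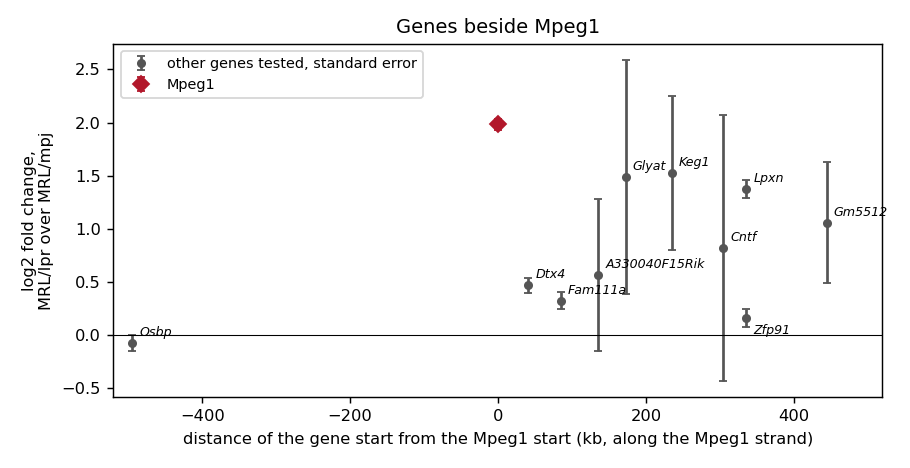
Log2 fold change of each gene tested within 500 kb of the start of Mpeg1, by distance from that start in kb along its strand, with bars of 1 standard error. Mpeg1 at 1.98 and Lpxn at 1.37 lie above a log2 fold change of 1, while Dtx4 (0.47) and Fam111a (0.32), which are nearer, lie below it. Keg1 (1.53), Glyat (1.49) and Gm5512 (1.06) also lie above it, at a mean of at most 1.27 CPM in either strain, and did not pass the threshold.

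The genes with the profile most like each of Mpeg1, Lyz2 and S100a8 over the 6 libraries were named by the root mean square difference of centred log2 CPM, among 9297 genes with a mean of at least 10 CPM. For Mpeg1 they were Mmd (0.0336 log2 units), Alox5 (0.0503), Sp100 (0.0673), Bcl2a1b (0.0761) and Marcksl1 (0.0768). For Lyz2 they were Prps2 (0.0273), Prdm2 (0.0327), Fcgr1 (0.0329), Rnpep (0.0335) and Dtx4 (0.0345), the last of which is a neighbour of Mpeg1. For S100a8 they were G6pdx (0.0297), Mgat1 (0.0415), Gpr84 (0.0476), Lrrc25 (0.0476) and Tnip1 (0.0516). With 6 libraries in 2 strains, these lists describe profiles only.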

How the data were processed

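CD11b-selected brain cells of MRL/lpr and MRL/mpj mice were measured by RNA-seq, 3 libraries per strain. The authors deposited raw counts, whole numbers for each gene and library. They also deposited FPKM values, which the authors scaled for gene length and depth. Per the labels, rRNA was depleted with Ribo-Zero and libraries made with a TruSeq stranded total RNA kit, while the methods speak of mRNA. The submitters' processing notes name cutadapt 1.9.3, HISAT2 2.0.4, Cuffdiff 2.2.1, Cufflinks and GRCm38, without their roles, and the methods name DESeq2. The counting tool, its strand setting and the annotation are not given in the sources used here. Symbols and coordinates came from GENCODE M21, which matched 55141 of 55401 identifiers, and the 260 others held 0.0163% to 0.0370% of counts. No annotated gene overlapped any of the 10 genes.

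The counts were tested with edgeR 4.0.16 in R 4.3.3 (filterByExpr with a minimum count of 10 and total of 15, TMM, robust quasi-likelihood test without covariates, Benjamini-Hochberg adjustment over all 19554 genes tested, common coefficient of variation 0.26). A gene was called higher or lower at an adjusted p under 0.05, and differentially expressed where the log2 fold change was also 1 or more in size. With 3 against 3 libraries an exact permutation test cannot go below 0.1, so none was used. On simulated data with 19205 genes, 98% of 200 changed genes and 14 others were called. The changed genes were drawn above a floor in CPM, with changes beyond a log2 fold change of 1 and the same spread set for every gene. These shares therefore say nothing about smaller changes or genes at low counts. Alternatives used DESeq2 1.42.0 and, for FPKM, limma 3.58.1 on log2(FPKM + 0.1) and log2(FPKM + 1). The depth was 45481609 to 49846634 counts per library.

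The members and lists were chosen with earlier results of these data known. Genes named are the 10 members, up to 4 genes of each related list with the largest absolute log2 fold change among those past the threshold and without overlap, listed genes over 500 CPM, defining markers, differentially expressed neighbours, and the 5 closest profiles of Mpeg1, Lyz2 and S100a8. Some genes that this rule names are not reported here.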

Additional observations from a re-analysis of the deposited data

How the results depend on the processing

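Mpeg1 was higher at an adjusted p under 0.05 in each of 17 alternatives, with log2 fold changes of 1.85 to 1.99. Against a log2 fold change of 1 (glmTreat), 1 of the 10 genes was higher, 3 related genes were higher and 2 lower, and 1 neighbour was called. By this construction a larger change is required. Related genes lower numbered 21 with library size only and 22 with limma on log2(FPKM + 0.1) and on log2(FPKM + 1), against 13, and neighbours differentially expressed numbered 8 with DESeq2 and 2 with log2(FPKM + 1), against 5. The cause was not tested. With 1 library left out, the 10 genes had 3 to 5 higher, related genes 30 to 35 higher and 8 to 12 lower, and neighbours 3 to 6. Of these, leaving out MRL/mpj library 2 gave the 3, with Lyz1 and S100a8 lost.

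Lcn2 turned to -0.12 with library size only, -0.003 with DESeq2, -0.12 with log2(FPKM + 0.1) and -0.11 with log2(FPKM + 1). With 1 library left out it ran from -0.033 to 0.031, and it was below 0 without MRL/lpr replicate 3 (-0.033) or MRL/mpj replicate 3 (-0.032). Slc11a1 ran from -0.109 to 0.006, above 0 without MRL/lpr replicate 2. Neither passed the test under any alternative. Of 17 alternatives, Ngp was called in 16, Lyz1 in 14, S100a8 in 9 and Camp in 4, and Lyz2 in 17 of 18. Dividing the counts by 4 and summing Lyz1 with Lyz2 were alternatives chosen after seeing the data.

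Deviations of libraries with the same number had correlations of -0.0573, -0.0304 and -0.0704, and those with different numbers of -0.0166 to 0.0783. The labels link such libraries by a number only. With 3 libraries per strain these values cannot show whether same-numbered libraries were prepared together. With the replicate number as a block, 4 of the 10 genes were higher and 0 lower, with S100a8 lost (adjusted p = 0.0593, edgeR), 31 related genes were higher and 10 lower, and 6 neighbours were differentially expressed. Depth limits Lyz1, whose MRL/mpj values rest on 0 to 16 counts, and intervals between 3 libraries cover the spread of these libraries only.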
